A study of Mus musculus with 25 samples.

Results

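The platelet-derived growth factor (PDGF) and hepatocyte growth factor (HGF) systems were followed through 8 genes in 5 embryonic mouse mesenchymes. The genes were picked by name: the PDGF ligand genes Pdgfa, Pdgfb, Pdgfc and Pdgfd, the PDGF receptor genes Pdgfra and Pdgfrb, Hgf, and the HGF receptor gene Met. They were matched through their Ensembl identifiers and are 8 of the 35880 genes of the count table. All 8 were among the 17657 genes that passed the expression filter. The study asked which mesenchymal signals guide the growth of the embryonic mammary gland, and sequenced the RNA of 25 samples, 5 of each tissue. At E16.5 (E for embryonic day) these were the precursor of the mammary fat pad (E16.5 FP) and the mammary mesenchyme (E16.5 MM). At E13.5 they were the mammary mesenchyme (E13.5 MM), the mesenchyme of the submandibular salivary gland (E13.5 SM) and the mesenchyme of ventral skin (E13.5 VM). Every embryo was of the strain C57Bl/6JOlaHsd, the labels name no transgene, mutation or drug in any tissue, and every sample was treated with Dispase II and trypsin so that epithelium could be cut away by hand. A sample pooled tissue of 2 to 3 embryos from 1 litter. Since 3 litters gave the 5 samples of each tissue, some of these shared a litter. The p-values therefore measure the spread between pools, and how much of it lies within litters cannot be told. Embryos older than E13.5 were female, whereas no sex is given for E13.5, so differences between the stages cannot be told apart from differences in the mix of sexes.

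PDGFs are secreted dimers that activate a pair of related receptor tyrosine kinases. PDGF-A and PDGF-C act mainly through the receptor encoded by Pdgfra, PDGF-D mainly through that encoded by Pdgfrb, and PDGF-B through either. PDGF-C and PDGF-D are made in a latent form and become active only after proteases cut off an inhibitory domain. In embryos Pdgfra marks most connective tissue mesenchyme, Pdgfrb marks mesenchyme and the mural cells around vessels, and PDGF-B made by endothelium draws mural cells to new vessels. HGF, also called scatter factor, is made by mesenchyme, cut into its active form outside the cell, and activates Met, best known on epithelium and on migrating muscle precursors.

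The libraries held between 20678150 and 34448304 counts, with a median of 26370369, and no pair of them was identical. The 9 mesenchyme markers were all detected in every tissue. Markers of other cell types were present as well, none of them at 0 among the endothelial, mural, epithelial or muscle lists, and their summed levels are given beside the results with which they moved. RNA was measured in whole tissue, so fewer cells of a type and less RNA per cell cannot be told apart. Y-linked Ddx3y had raw counts of 0 for E16.5 FP and 0 to 1 for E16.5 MM, against 2149 to 6918 for E13.5 MM, 0 to 4702 for E13.5 SM and 1354 to 2715 for E13.5 VM. E13.5 SM thus reached 0, whereas no E13.5 MM or E13.5 VM sample did, so the mix of sexes also varied at E13.5. The part of sex in the differences between the E13.5 tissues was not tested.

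Levels are given as TMM-normalized counts per library, and as normalized counts per kb of annotated exon where genes are set against each other. On the scale per kb the means of both PDGF receptor genes were above those of the other genes in every tissue, most narrowly in E13.5 SM, where Pdgfrb averaged 674 ± 47.0 and Pdgfd 479 ± 66.2 normalized counts per kb (SD, n = 5). In E13.5 MM, Pdgfra averaged 2485 ± 228 and Pdgfrb 966 ± 76.9 normalized counts per kb (SD, n = 5), followed by Pdgfa at 132 ± 19.1, Pdgfd at 126 ± 22.3, Met at 123 ± 16.8, Pdgfb at 103 ± 8.26, Pdgfc at 67.5 ± 18.4 and Hgf at 38.7 ± 6.03. The mean of the highest tissue was 11.6-fold that of the lowest for Pdgfd and 9.25-fold for Hgf. It was 4.67-fold for Pdgfc, 3.98-fold for Met, 3.22-fold for Pdgfa, 3.21-fold for Pdgfra, 2.61-fold for Pdgfrb and 2.12-fold for Pdgfb.

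**Figure D1:**
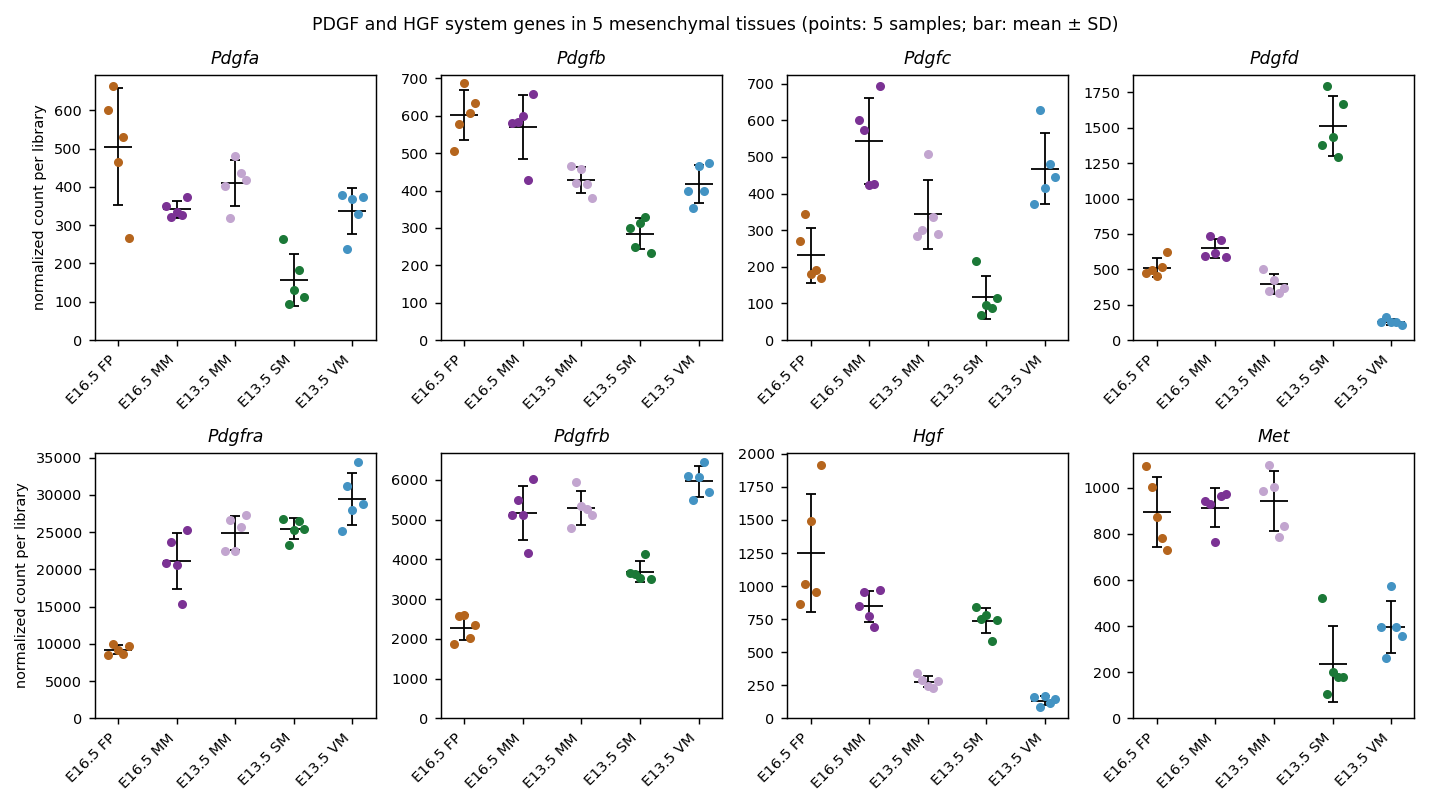
Normalized count per library of the 8 genes (vertical axes, from 0, on a scale of their own for each gene) in the 5 tissues. Points are the 5 samples of a tissue and bars the mean ± SD, and the 5 E13.5 SM samples lie between 1292 and 1792 for Pdgfd, above every other sample.

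The tissues were compared in 10 pairs with edgeR's quasi-likelihood test. A difference was called where the adjusted p was under 0.05, the log2 fold change was at least 0.58 in size and the mean exceeded 50 normalized counts in the higher tissue. Most members were called in the pairs that include E13.5 SM, and between the fat pad precursor and ventral skin. All 8 were called between E16.5 FP and E13.5 SM, 5 as higher and 3 as lower in E16.5 FP, where 20.2% of all genes tested were called higher and 19.3% lower. Between E16.5 FP and E13.5 VM 7 were called, 4 higher (15% of all genes) and 3 lower (12.4%). Between E13.5 MM and E13.5 SM 6 were called, 4 higher (14.5%) and 2 lower (15.6%) in E13.5 MM. Between E13.5 SM and E13.5 VM 6 were called as well, 2 higher (15.6%) and 4 lower (14.7%) in E13.5 SM. Between E16.5 MM and E13.5 SM 5 were called, 4 higher (18.5%) and 1 lower (16.6%).

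Fewer members differed among the mammary tissues and skin. In E13.5 MM over E13.5 VM 3 members were called, all higher (Pdgfd, Hgf and Met), where 3.79% of all genes were called higher and 2.66% lower. In E16.5 MM over E13.5 MM 3 were called, all higher (Hgf, Pdgfd and Pdgfc), with 12.6% of all genes higher and 7.16% lower. In E16.5 MM over E13.5 VM 3 were called, all higher (Hgf, Pdgfd and Met), with 13.7% of all genes higher and 9.55% lower. In E16.5 FP over E13.5 MM Hgf was called higher and Pdgfra and Pdgfrb lower, with 14.3% and 11.2% of all genes. In E16.5 FP over E16.5 MM Pdgfc, Pdgfra and Pdgfrb were called, all lower, with 6.78% of all genes higher and 7.34% lower. These pairs share tissues, so their counts are not independent of each other. The median log2 fold change over all 17657 genes lay between -0.04 and 0.04 in the 10 pairs, while the median over the 8 members lay between -0.62 in E13.5 SM against E13.5 VM and 0.87 in E16.5 FP against E13.5 SM.

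**Figure D2:**
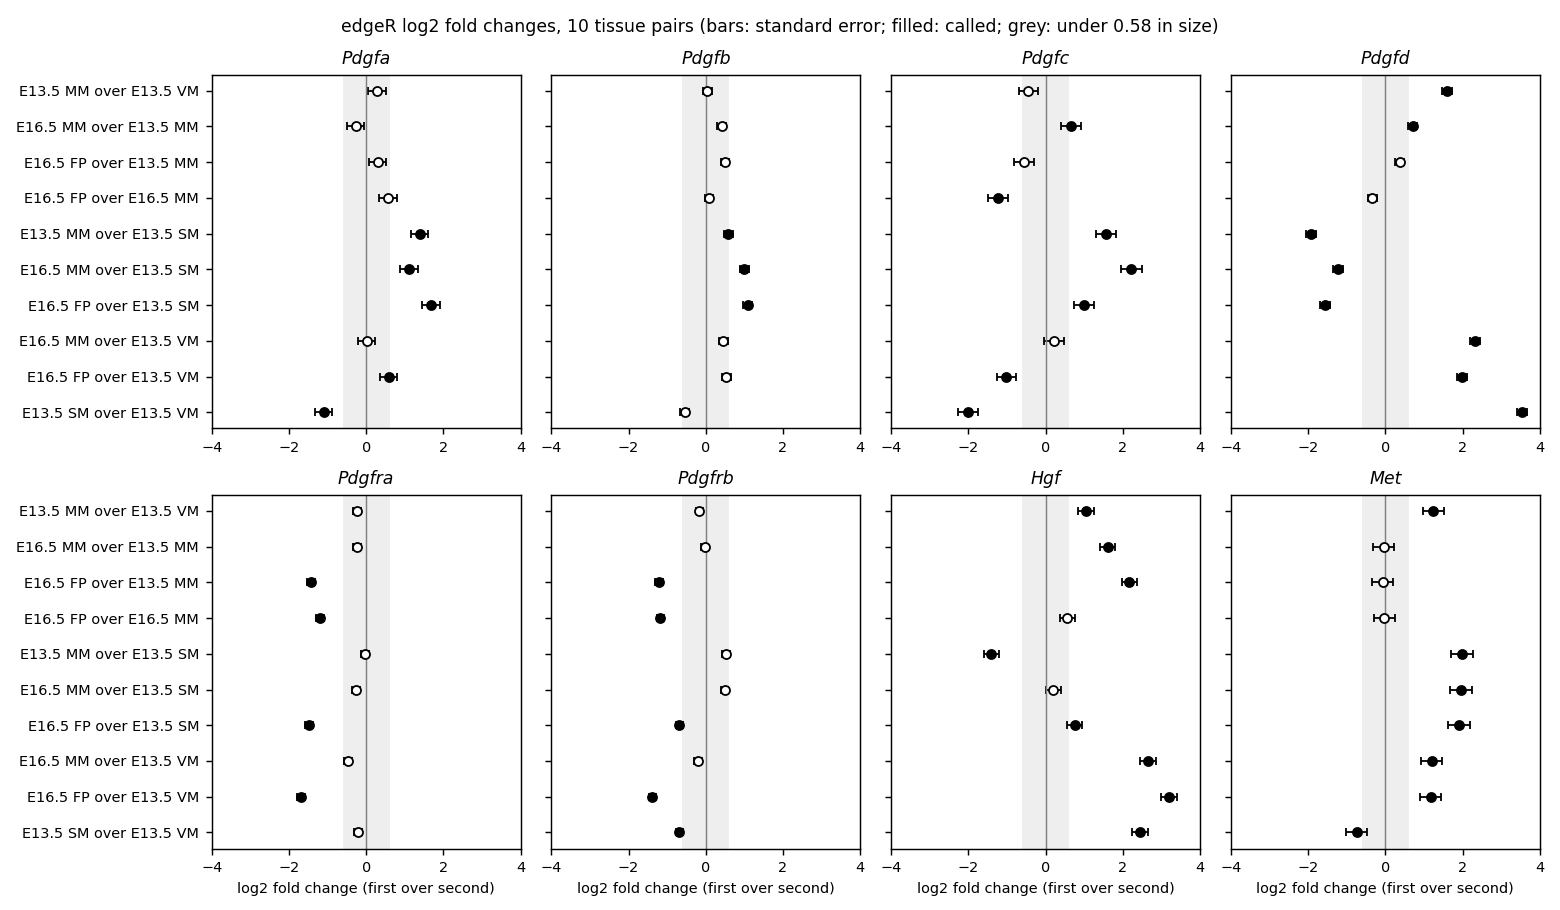
Log2 fold change of each gene (horizontal axes) in the 10 tissue pairs (rows), the first tissue over the second. Bars are the standard error, filled points were called, and the grey band marks changes under 0.58 in size. Pdgfra and Pdgfrb were called only in pairs with E16.5 FP, apart from Pdgfrb in E13.5 SM over E13.5 VM.

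Pdgfd, which encodes a PDGF made in latent form, had the widest range of the 8 genes and was highest in the salivary mesenchyme. The gene (ENSMUSG00000032006) lies on the plus strand of chromosome 9 from 6168584 to 6378850 in GRCm38 (mm10). The mammary tissues held a middle place, with 472, 495, 453, 516 and 621 normalized counts for E16.5 FP, 596, 734, 612, 707 and 587 for E16.5 MM and 506, 348, 427, 335 and 369 for E13.5 MM. E13.5 SM had 1379, 1792, 1433, 1292 and 1666, against 126, 165, 129.6, 126 and 104 in E13.5 VM. Every salivary sample was thus above every other sample, and every skin sample below every other. The log2 fold change of E13.5 SM over E13.5 VM was 3.54 ± 0.14 (SE, adjusted p = 3.78e-17 by edgeR).

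Against the salivary mesenchyme, Pdgfd was lower, with a log2 fold change of -1.56 ± 0.12 for E16.5 FP (adjusted p = 3.39e-11), -1.22 ± 0.12 for E16.5 MM (3.18e-09) and -1.93 ± 0.13 for E13.5 MM (1.25e-12, all SE and edgeR). Against ventral skin of the same stage, E13.5 MM was higher by 1.61 ± 0.13 (adjusted p = 1.46e-09 by edgeR). Between the mammary stages, E16.5 MM was above E13.5 MM in every sample, by 0.71 ± 0.12 (adjusted p = 4.09e-05 by edgeR). The order of the means was thus E13.5 SM, E16.5 MM, E16.5 FP, E13.5 MM and E13.5 VM. The neighbours E16.5 MM and E16.5 FP, and E16.5 FP and E13.5 MM, overlapped in their samples and differed by less than a call needs. Every Pdgfd call held under every alternative. Ddi1, a gene on the opposite strand within Pdgfd, had 110 counts over all 25 libraries together.

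Hgf, the ligand of Met, was the other gene with a wide range, and differed between the stages of the mammary mesenchyme as well as between tissues. The gene (ENSMUSG00000028864) lies on the plus strand of chromosome 5 from 16553495 to 16620152. Its normalized counts at E16.5 were 866, 1017, 1494, 952 and 1916 for E16.5 FP and 847, 952, 777, 694 and 967 for E16.5 MM. E13.5 MM had 342, 288, 247, 229.6 and 286, below every sample of both. The log2 fold change over E13.5 MM was 2.17 ± 0.20 for E16.5 FP (adjusted p = 1.92e-09) and 1.61 ± 0.20 for E16.5 MM (4.23e-07, both SE and edgeR). The other E13.5 tissues had 840.0, 748, 781, 581 and 746 normalized counts in E13.5 SM, against 158, 83.1, 171, 113 and 149 in E13.5 VM. E13.5 MM lay between them without overlap, at -1.41 ± 0.20 over E13.5 SM (adjusted p = 1.20e-06) and 1.04 ± 0.20 over E13.5 VM (6.77e-04), and E13.5 SM over E13.5 VM was 2.45 ± 0.21 (2.74e-10, all SE and edgeR). E16.5 FP and E16.5 MM were also above E13.5 VM, by 3.21 ± 0.21 (3.15e-12) and 2.65 ± 0.21 (1.41e-10).

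E16.5 MM and E13.5 SM, of different stages and glands, overlapped in Hgf, and their log2 fold change was 0.20 ± 0.19 (SE, adjusted p = 0.364 by edgeR). E16.5 FP was the highest tissue, and it was called against E13.5 SM at 0.76 ± 0.19 (SE, adjusted p = 0.00114 by edgeR). Without E16.5 FP replicate 5, its highest sample, that difference was 0.56 and no longer called. E16.5 FP against E16.5 MM, at 0.56 ± 0.19 (SE, adjusted p = 0.0246 by edgeR), fell just short of the size a call needs. It was called, at 0.59 to 0.66, without E16.5 MM replicate 2 or 5 or without E16.5 FP replicate 1, 2 or 4. The 9 markers of mural cells, the pericytes and smooth muscle of vessels, moved with Hgf between the stages. Their summed normalized counts were 19910 to 30904 for E16.5 FP and 17731 to 23202 for E16.5 MM, against 5859 to 7975 for E13.5 MM, 5458 to 6650 for E13.5 SM and 5446 to 7548 for E13.5 VM, and none of them was at 0 in any tissue. E13.5 SM, with Hgf near that of E16.5 MM, had mural sums in the range of the other E13.5 tissues, but single markers differed. In E13.5 SM over E13.5 VM 4 of the 9 were called higher (15.6% of all genes) and 2 lower (14.7%), with a median log2 fold change of 0.43. In E13.5 MM over E13.5 SM 3 were higher (14.5%) and 3 lower (15.6%), with a median of 0.14. The part of mural cells in the Hgf differences was not tested.

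Pdgfd and Hgf were both called higher in E13.5 SM against E13.5 VM, in E16.5 MM against E13.5 MM and in E13.5 MM against E13.5 VM, whereas Pdgfc was lower in the first of these. The promoters of these 3 genes are shown because the genes moved together or apart in these pairs. They run from 250 bases before to 50 after the RefSeq start of the gene in GRCm38.p6, on the plus strand. The Pdgfd window is chr9:6168236-6168535, that of Hgf chr5:16553245-16553544 and that of Pdgfc chr3:81036166-81036465. RefSeq windows were matched for 6 of the 8 genes. Capitals mark each match to 3 common promoter motifs searched on both strands, TATAAA (the TATA box), CCAAT (printed as ATTGG where it lies on the minus strand) and GGGCGG (the GC box).
Pdgfd: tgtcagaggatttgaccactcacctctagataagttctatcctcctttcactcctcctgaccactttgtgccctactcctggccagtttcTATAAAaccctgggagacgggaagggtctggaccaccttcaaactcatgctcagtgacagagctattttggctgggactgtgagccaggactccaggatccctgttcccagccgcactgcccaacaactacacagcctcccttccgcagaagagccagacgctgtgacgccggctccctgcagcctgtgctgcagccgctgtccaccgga
Hgf: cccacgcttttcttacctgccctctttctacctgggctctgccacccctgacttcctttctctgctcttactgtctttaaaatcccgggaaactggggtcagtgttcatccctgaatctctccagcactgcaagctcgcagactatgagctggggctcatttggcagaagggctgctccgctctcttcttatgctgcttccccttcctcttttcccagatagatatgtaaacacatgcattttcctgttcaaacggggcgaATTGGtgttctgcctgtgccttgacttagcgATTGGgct
Pdgfc: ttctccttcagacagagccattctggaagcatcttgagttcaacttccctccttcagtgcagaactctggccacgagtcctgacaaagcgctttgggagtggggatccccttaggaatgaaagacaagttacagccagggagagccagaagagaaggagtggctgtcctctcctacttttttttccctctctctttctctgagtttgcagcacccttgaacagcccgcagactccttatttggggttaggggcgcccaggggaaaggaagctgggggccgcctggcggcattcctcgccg
The Pdgfd window held 1 TATAAA, beginning 160 bases before the RefSeq start. For Pdgfd the gene start given above, 6168584, lies beyond the end of the window, so it differs from the RefSeq start. The Hgf window held 2 CCAAT matches downstream of the start, and the Pdgfc window held none of the 3 motifs. Of 32851 windows of the same length, 13.6% held TATAAA, 37.4% CCAAT and 35.7% GGGCGG. The GC content of the printed windows was 56.7% for Pdgfd, 51.3% for Hgf and 55.0% for Pdgfc, against a median of 52.7% over all windows. A match is a run of letters and was not tested as a binding site.

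Pdgfc, the other ligand made in latent form, had the opposite order between the E13.5 tissues and was lowest in the salivary mesenchyme. The gene (ENSMUSG00000028019) lies on the plus strand of chromosome 3 from 81036416 to 81214040. E13.5 MM had 285, 301, 508, 335 and 289 normalized counts. E13.5 SM had 216, 68.1, 95.3, 86.4 and 115, against 371, 629, 415, 482 and 445 in E13.5 VM. The salivary samples lay below every sample of both, and the log2 fold change of E13.5 SM over E13.5 VM was -2.01 ± 0.27 (SE, adjusted p = 5.96e-07 by edgeR). E13.5 MM was above E13.5 SM by 1.56 ± 0.26 (SE, adjusted p = 1.90e-05 by edgeR). Its difference from E13.5 VM, -0.45 ± 0.25 (SE, adjusted p = 0.271 by edgeR), was not called.

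At E16.5 Pdgfc differed between the fat pad precursor and the mammary mesenchyme. E16.5 FP had 270.1, 345, 181, 191 and 170.3 normalized counts, against 600.1, 574, 423, 427 and 693 in E16.5 MM. E16.5 FP was below E16.5 MM in every sample, with a log2 fold change of -1.23 ± 0.26 (SE, adjusted p = 5.27e-04 by edgeR), and below E13.5 VM with -1.01 ± 0.26 (SE, adjusted p = 0.00165 by edgeR). E16.5 MM and E16.5 FP exceeded E13.5 SM by 2.22 ± 0.27 (adjusted p = 1.21e-07) and 0.99 ± 0.26 (0.00193, SE and edgeR). E16.5 MM over E13.5 MM was called at 0.66 ± 0.25 (SE, adjusted p = 0.0331 by edgeR), but the samples overlapped. That call was lost, at 0.57 to 0.67, without any 1 of 7 samples, which were E16.5 MM replicate 1, 2 or 5 and E13.5 MM replicate 1, 2, 4 or 5. E16.5 FP over E13.5 MM, at -0.57 ± 0.26 (SE, adjusted p = 0.0661 by edgeR), was not called, and was called at -0.76 without E16.5 FP replicate 2.

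Pdgfa, a ligand of the receptor encoded by Pdgfra, was lowest in the salivary mesenchyme and differed less among the other tissues. The gene (ENSMUSG00000025856) lies on the minus strand of chromosome 5 from 138976014 to 138997370. It averaged 506 ± 153 normalized counts in E16.5 FP, 342 ± 21.6 for E16.5 MM, 411 ± 59.7 for E13.5 MM, 157 ± 68.5 for E13.5 SM and 338 ± 59.9 for E13.5 VM (SD, n = 5 each). The E13.5 SM samples ran from 93.9 to 265, and the samples of E16.5 FP, E16.5 MM and E13.5 MM all lay above 265, the lowest of them at 266 in E16.5 FP replicate 5. E13.5 VM reached down to 237 and overlapped with E13.5 SM. The log2 fold changes over E13.5 SM were 1.68 ± 0.23 for E16.5 FP (adjusted p = 6.68e-07), 1.12 ± 0.23 for E16.5 MM (1.64e-04) and 1.39 ± 0.23 for E13.5 MM (1.34e-05), and E13.5 SM over E13.5 VM gave -1.10 ± 0.23 (2.06e-04, all SE and edgeR). These 4 calls held under every alternative.

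The other Pdgfa differences were small against the spread. E16.5 FP over E13.5 VM was called at 0.58 ± 0.22 (SE, adjusted p = 0.0299 by edgeR) with overlapping samples. It was lost at 0.47 to 0.58 without E16.5 FP replicate 1, 2 or 4 or without E13.5 VM replicate 2 or 4. E16.5 FP over E16.5 MM, at 0.57 ± 0.22 (SE, adjusted p = 0.0539 by edgeR), was called only without E16.5 FP replicate 5, at 0.73. In that sample the 10 markers of skeletal muscle and its precursors summed to 13552 normalized counts, against 79472 to 147894 in the other E16.5 FP samples, and Hgf was the highest of the group. The part of muscle in these values was not tested.

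Pdgfb, the ligand known from endothelium, had the narrowest range of the 8 genes. The gene (ENSMUSG00000000489) lies on the minus strand of chromosome 15 from 79995874 to 80014977. It averaged 603 ± 67.5 normalized counts in E16.5 FP, 570.2 ± 85.3 for E16.5 MM, 428 ± 34.4 for E13.5 MM, 285 ± 42.0 for E13.5 SM and 418 ± 51.1 for E13.5 VM (SD, n = 5 each). The salivary samples, at 234 to 330.3, lay below every sample of the other tissues, where the lowest was 352. Over E13.5 SM, the log2 fold change was 1.08 ± 0.12 for E16.5 FP (adjusted p = 9.61e-09), 1.0 ± 0.12 for E16.5 MM (4.41e-08) and 0.58 ± 0.12 for E13.5 MM (1.08e-04, all SE and edgeR).

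Several Pdgfb differences lay near the size that a call needs. That of E13.5 MM over E13.5 SM fell under it, at 0.52 to 0.56, without E13.5 MM replicate 1 or 3 or without E13.5 SM replicate 2 or 5. That of E13.5 SM over E13.5 VM, -0.55 ± 0.12 (SE, adjusted p = 2.08e-04 by edgeR), passed it, at -0.60 to -0.61, without E13.5 SM replicate 3 or 4 or without E13.5 VM replicate 2. That of E16.5 FP over E13.5 VM, 0.53 ± 0.11 (SE, adjusted p = 3.38e-04 by edgeR), passed it at 0.58 without E16.5 FP replicate 1 and at 0.59 without E13.5 VM replicate 5.

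The 11 endothelial markers moved with Pdgfb. Their summed normalized counts were 31506 to 38640 for E16.5 FP, 25723 to 31081 for E16.5 MM, 20805 to 25471 for E13.5 MM, 13543 to 15530 for E13.5 SM and 19556 to 21775 for E13.5 VM, and none was at 0 in any tissue. Per 1000 endothelial marker counts, Pdgfb had 17.1 ± 0.866 counts in E16.5 FP, 19.5 ± 1.83 for E16.5 MM, 18.8 ± 1.82 for E13.5 MM, 19.4 ± 2.37 for E13.5 SM and 20.1 ± 1.72 for E13.5 VM (SD, n = 5 each). On this scale, chosen after the data were seen, the log2 difference over E13.5 SM was -0.18 in E16.5 FP, 0.01 for E16.5 MM and -0.047 for E13.5 MM. None of the 10 pairs reached an adjusted p of 0.05 in an exact two-sided permutation test. The smallest adjusted p of this exact permutation test, 0.159, was that of E16.5 FP over E16.5 MM (-0.19) and over E13.5 VM (-0.23). With 5 samples against 5, such a result does not show that the scaled levels were equal. Across the 25 samples, the genes most like Pdgfb out of 11876 were Cdh5 (Pearson r = 0.95 of log2 CPM), which encodes the cadherin of endothelial junctions, and Pecam1 (r = 0.95), which encodes an endothelial adhesion receptor. Both are among the 11 markers. How much of the Pdgfb differences lay in endothelial content was not tested.

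**Figure D3:**
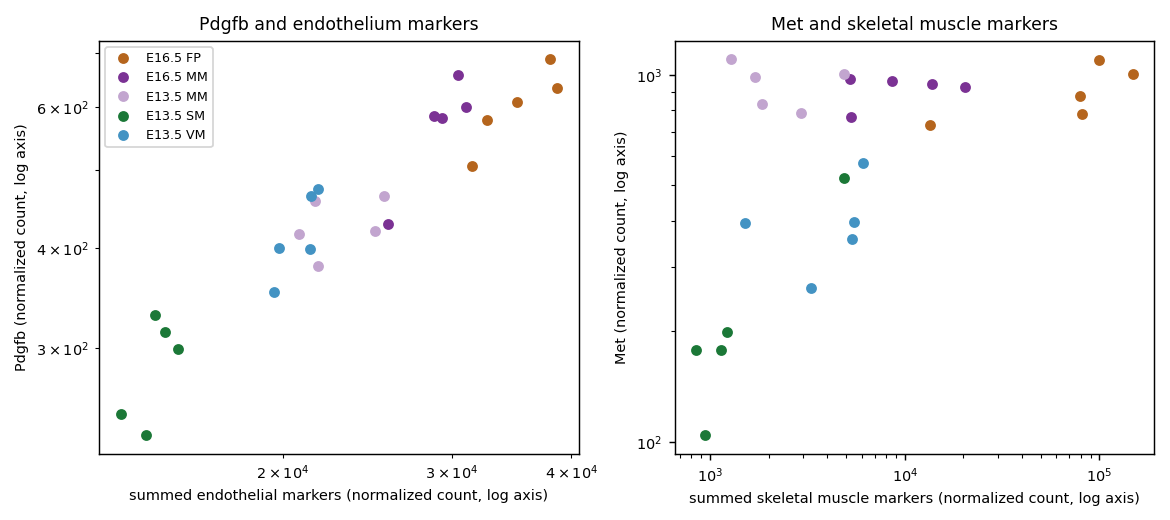
Left, Pdgfb against the sum of 11 endothelial markers, and right, Met against the sum of 10 skeletal muscle markers, in normalized counts with every axis on a log scale. Points are the 25 samples by tissue. Pdgfb of the E13.5 SM samples is lowest where endothelial sums are lowest, and Met of 1 E13.5 SM sample, at 523, stands above the other 4.

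The makeup of the ligand transcripts differed most in the salivary mesenchyme. Of the normalized counts per kb of the 4 ligand genes, Pdgfd made up 31.8 ± 5.95% for E16.5 FP, 36.9 ± 4.87% for E16.5 MM, 29.4 ± 3.56% for E13.5 MM, 77.0 ± 6.57% for E13.5 SM and 12.1 ± 2.23% for E13.5 VM (SD, n = 5 each). Pdgfa made up 31.1 ± 7.75% for E16.5 FP, 19.6 ± 1.21% for E16.5 MM, 30.8 ± 3.01% for E13.5 MM, 8.18 ± 3.62% for E13.5 SM and 31.6 ± 5.43% for E13.5 VM. The share of Pdgfc was lowest in E13.5 SM, at 3.68 ± 1.77%, next in E16.5 FP, at 8.73 ± 2.15%, and highest in E13.5 VM, at 27.0 ± 5.92%. The sum over the 4 ligands was 515 ± 40.3 normalized counts per kb in E16.5 FP, 558 ± 36.8 for E16.5 MM, 428 ± 50.1 for E13.5 MM, 621 ± 43.1 for E13.5 SM and 342 ± 10.9 for E13.5 VM. The salivary mesenchyme thus had the highest mean sum while 3 of its 4 ligand genes had their lowest means. Its sums ran from 564 to 671 and overlapped with those of E16.5 MM (515 to 601) and E16.5 FP (468 to 577). The sums were not tested. Shares of 1 total depend on each other, so the rise in the share of one ligand lowers those of the others.

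**Figure D4:**
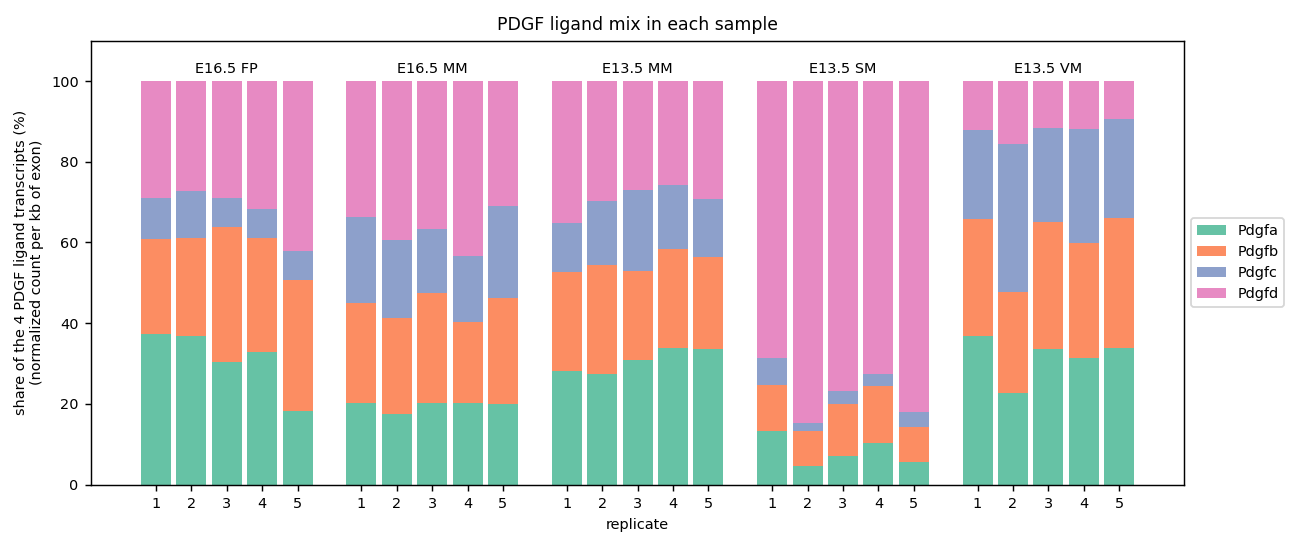
Share of each PDGF ligand gene in the sum of the 4 (vertical axis, percent of normalized counts per kb of exon) in each of the 25 samples, by tissue. Pdgfd takes 68.7 to 84.6% in the E13.5 SM samples and 9.32 to 15.6% in the E13.5 VM samples.

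The ratio of the latent ligands within a sample does not depend on library size. Pdgfd over Pdgfc had a mean log2 ratio of counts of 1.19 ± 0.53 for E16.5 FP, 0.27 ± 0.40 for E16.5 MM, 0.23 ± 0.40 for E13.5 MM, 3.80 ± 0.73 for E13.5 SM and -1.84 ± 0.21 for E13.5 VM (SD, n = 5 each). The difference of E13.5 SM over E13.5 VM was 5.64 on the log2 scale (exact two-sided permutation test, p = 0.0079, the smallest that 5 against 5 allow, adjusted p = 0.0132 over 30 tests of 3 ratios). Every pair of tissues passed the test in this ratio except E16.5 MM over E13.5 MM, at 0.05 (exact permutation test, adjusted p = 0.887). The differences of E16.5 FP over E13.5 MM (0.96) and over E16.5 MM (0.92) had an adjusted p of 0.0311 in the exact permutation test, and both crossed the threshold when single samples were left out. For the first these were E16.5 FP replicate 3 or 5 and E13.5 MM replicate 3, at 0.79 to 0.93. For the second they were E16.5 FP replicate 3 or 5 and E16.5 MM replicate 1 or 5, at 0.75 to 0.88.

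Pdgfra, which encodes the receptor of PDGF-A and PDGF-C, was the most abundant of the 8 genes per kb in every tissue and was lowest in the fat pad precursor. The gene (ENSMUSG00000029231) lies on the plus strand of chromosome 5 from 75152292 to 75198215. Its normalized counts were 8519, 9945, 9136, 8688 and 9679 in E16.5 FP, against 20793, 23638, 20596, 15384 and 25324 in E16.5 MM. The samples of E13.5 MM ran from 22473 to 27239, those of E13.5 SM from 23237 to 26822 and those of E13.5 VM from 25161 to 34349.9. The E16.5 FP samples thus lay below every other sample, with log2 fold changes of -1.20 ± 0.10 over E16.5 MM (adjusted p = 1.20e-09), -1.44 ± 0.10 over E13.5 MM (1.32e-11), -1.47 ± 0.10 over E13.5 SM (4.12e-12) and -1.68 ± 0.10 over E13.5 VM (5.20e-13, all SE and edgeR). Among the other 4 tissues no difference was called. The largest of them was E16.5 MM over E13.5 VM, -0.48 ± 0.10 (SE, adjusted p = 3.19e-04 by edgeR), with overlapping samples.

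Pdgfrb, the receptor gene known from mural cells and mesenchyme, was likewise lowest in E16.5 FP, and was next lowest in the salivary mesenchyme. The gene (ENSMUSG00000024620) lies on the plus strand of chromosome 18 from 61045150 to 61085061. Its normalized counts were 1882, 2577, 2592, 2014 and 2352 in E16.5 FP, against 5107, 5482, 5107, 4165 and 6017 in E16.5 MM. E13.5 MM ran from 4785 to 5938, E13.5 SM had 3645, 3635, 3534, 4136 and 3497, and E13.5 VM ran from 5485 to 6453. No sample of E16.5 FP or of E13.5 SM overlapped with another tissue. The log2 fold change of E16.5 FP was -1.18 ± 0.09 over E16.5 MM (adjusted p = 2.53e-10), -1.21 ± 0.09 over E13.5 MM (4.25e-11), -0.69 ± 0.09 over E13.5 SM (3.62e-07) and -1.38 ± 0.09 over E13.5 VM (2.62e-12, all SE and edgeR). E13.5 SM over E13.5 VM was called at -0.69 ± 0.09 (SE, adjusted p = 4.64e-07 by edgeR).

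The mammary mesenchymes exceeded E13.5 SM in Pdgfrb by less than a call needs, E16.5 MM by 0.49 ± 0.09 (adjusted p = 5.44e-05) and E13.5 MM by 0.52 ± 0.09 (2.77e-05, both SE and edgeR), and that of E16.5 MM was called at 0.58 without E16.5 MM replicate 4. The mural marker sums, given beside Hgf above, were high in E16.5 FP, where Pdgfrb was lowest. Pericyte gene Rgs5 averaged 3743 ± 816 normalized counts for E16.5 FP and 5255 ± 721 for E16.5 MM, against 48.0 ± 26.3 for E13.5 MM, 221 ± 32.5 for E13.5 SM and 17.5 ± 8.16 for E13.5 VM (SD, n = 5 each). Rgs5 was not typical of the 9 mural markers. In E16.5 MM over E13.5 MM 8 of them were called higher and 0 lower, with a median log2 fold change of 1.22 (12.6% and 7.16% of all genes). In E16.5 FP over E16.5 MM 2 were higher and 0 lower, with a median of 0.18 (6.78% and 7.34%). Skeletal muscle markers summed to 13552 to 147894 for E16.5 FP, against 5239 to 20274 for E16.5 MM, 1275 to 4854 for E13.5 MM, 850 to 4870 for E13.5 SM and 1516 to 6100 for E13.5 VM. Single muscle markers were split in E16.5 MM. Relative to E13.5 MM, 4 of the 10 were called higher and 4 lower there (median -0.73, 12.6% and 7.16% of all genes). Relative to E13.5 VM, 3 were higher and 2 lower (median -0.71, 13.7% and 9.55%). E16.5 FP had 8 higher and 1 lower relative to E16.5 MM (median 2.03, 6.78% and 7.34%). The sums of 5 adipocyte markers were 17774 to 37287 in E16.5 FP, against 2377 to 5021 in E16.5 MM and under 417 in every E13.5 sample. The 9 mesenchyme markers summed to 628405 to 741622 in E16.5 FP, against 1140627 to 1282589 in E16.5 MM. In this pair 7 of the 9 were called lower in E16.5 FP, with 7.34% of all genes. The E13.5 tissues had lower mesenchyme sums than E16.5 FP and higher means of both receptors. Their sums were 424163 to 550695 for E13.5 MM, 327087 to 402441 for E13.5 SM and 353486.5 to 479458 for E13.5 VM. The 9 markers were split against these tissues. In E16.5 FP over E13.5 MM 3 were called higher and 2 lower (14.3% and 11.2% of all genes), with a median of 0.31. In E16.5 FP over E13.5 SM 7 were higher and 2 lower (20.2% and 19.3%), with a median of 0.90. In E16.5 FP over E13.5 VM 4 were higher and 3 lower (15% and 12.4%), with a median of 0.28. The part of these cell types in the receptor differences was not tested.

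The receptors were not lowered alike in every tissue. The log2 ratio of Pdgfra over Pdgfrb counts averaged 2.02 ± 0.14 for E16.5 FP, 2.02 ± 0.09 for E16.5 MM, 2.23 ± 0.13 for E13.5 MM, 2.79 ± 0.10 for E13.5 SM and 2.30 ± 0.18 for E13.5 VM (SD, n = 5 each). E16.5 FP and E16.5 MM, which differed in the level of both receptors, had a difference of -0.002 in their ratio (exact permutation test, adjusted p = 0.984). The salivary mesenchyme had the highest ratio, 0.49 above E13.5 VM on the log2 scale, with an adjusted p of 0.0132 in the exact permutation test, as in its comparisons with the 3 mammary tissues. Both E16.5 tissues were below E13.5 MM, by -0.21 each (exact permutation test, adjusted p = 0.0476 for E16.5 FP and 0.0311 for E16.5 MM), and below E13.5 VM, by -0.28 each (0.0397 and 0.0311). Without single samples these 4 differences stayed between -0.35 and -0.16, and each crossed the threshold in at least 1 of those fits, as listed with the alternatives.

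**Figure D5:**
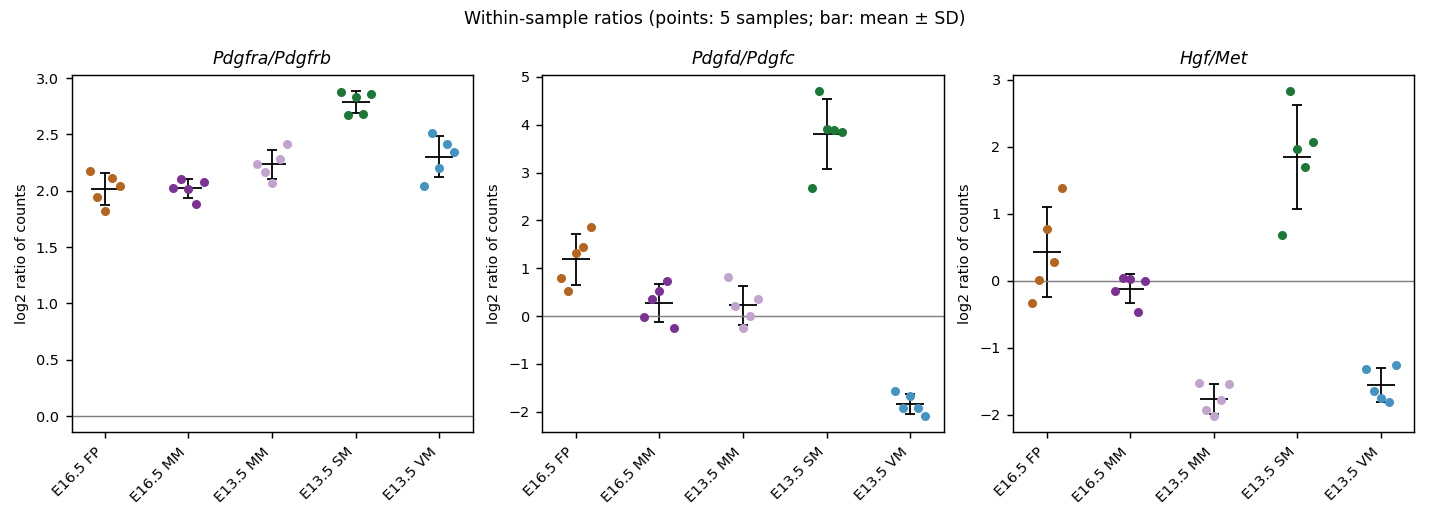
Log2 ratio of normalized counts within each sample (vertical axes) for Pdgfra over Pdgfrb, Pdgfd over Pdgfc and Hgf over Met, by tissue. Points are the 5 samples, bars the mean ± SD and the grey line equal counts. The E13.5 SM samples have the highest mean in all 3 panels, at 2.79, 3.80 and 1.85.

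Met, which encodes the receptor of HGF, was high in the 3 mammary tissues and low in the salivary mesenchyme and ventral skin. The gene (ENSMUSG00000009376) lies on the plus strand of chromosome 6 from 17463800 to 17573980. Its normalized counts were 1095, 1004, 875, 781 and 732 for E16.5 FP, 944, 928, 766, 964 and 971 for E16.5 MM, and 988, 1101, 1002, 787 and 834 for E13.5 MM. E13.5 SM had 523, 104, 199, 178 and 178, and E13.5 VM had 396, 262, 574, 395 and 358. Every mammary sample was above every sample of the other tissues, and the mammary tissues overlapped with each other, with log2 fold changes between -0.07 and -0.03 in their 3 pairs. E13.5 MM exceeded E13.5 SM by 1.99 ± 0.28 (adjusted p = 2.55e-06) and E13.5 VM by 1.24 ± 0.28 (0.00261). E16.5 MM exceeded them by 1.95 ± 0.29 (3.03e-06) and 1.20 ± 0.28 (8.78e-04), and E16.5 FP by 1.92 ± 0.28 (3.07e-06) and 1.17 ± 0.28 (9.57e-04, all SE and edgeR).

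E13.5 SM over E13.5 VM was called in Met at -0.75 ± 0.28 (SE, adjusted p = 0.0258 by edgeR), but rested on single samples. E13.5 SM replicate 1, with 523 normalized counts, stood above the other 4 at 104 to 199 and within the range of E13.5 VM. Without it the difference was -1.27, and without E13.5 SM replicate 2, 3, 4 or 5 or E13.5 VM replicate 3 it was -0.70 to -0.55 and no longer called. E13.5 SM replicate 1 was also the highest of its tissue in Pdgfa, at 265, and in Pdgfc, at 216. Its summed muscle markers were 4870, against 850 to 1223 in the other E13.5 SM samples. The part of muscle cells in its Met count was not tested. Without that sample, E13.5 SM over E13.5 VM was -1.37 for Pdgfa and -2.36 for Pdgfc.

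Epithelial cells are those on which Met is best known. The 11 epithelial markers summed to 272 to 1371 normalized counts in E16.5 FP, 535 to 3555 for E16.5 MM, 384 to 809 for E13.5 MM, 594 to 778 for E13.5 SM and 556 to 1593 for E13.5 VM. The epithelial sums for E13.5 MM overlapped with those for E13.5 SM, but single markers differed in both directions. In E13.5 MM over E13.5 SM 1 of the 11 was called higher (14.5% of all genes) and 2 lower (15.6%). Their median log2 fold change in this pair was 0.89. Epcam, an epithelial adhesion gene, averaged 53.6 ± 17.5 normalized counts in E13.5 MM, against 457 ± 80.5 in E13.5 SM. Krt14, a keratin gene of basal epithelium, averaged 40.6 ± 35.7 in E13.5 MM, against 2.99 ± 1.83 in E13.5 SM, and Cdh1, the gene of E-cadherin, 15.9 ± 5.64 against 7.79 ± 4.31 (SD, n = 5 each). These 3 genes were chosen after their values were seen, and the part of epithelium in the Met differences was not tested. The genes most like Met over the 25 samples were Cldn1 (Pearson r = 0.92), which encodes a tight junction protein, and Pde4b (r = 0.91), which encodes a cyclic AMP phosphodiesterase.

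Hgf and Met together set the tissues apart in another way than either alone. The log2 ratio of Hgf over Met counts was 0.43 ± 0.67 for E16.5 FP, -0.12 ± 0.21 for E16.5 MM, -1.76 ± 0.22 for E13.5 MM, 1.85 ± 0.78 for E13.5 SM and -1.55 ± 0.25 for E13.5 VM (SD, n = 5 each). Receptor counts thus exceeded ligand counts in every E13.5 MM and E13.5 VM sample, and ligand counts exceeded receptor counts in every E13.5 SM sample. E16.5 MM over E13.5 MM was 1.65, E13.5 MM over E13.5 SM was -3.61 and E13.5 SM over E13.5 VM was 3.40, each with an adjusted p of 0.0132 in the exact permutation test. E13.5 MM and E13.5 VM, which differed in both genes, had a difference of -0.21 in the ratio (exact permutation test, adjusted p = 0.212). The difference of E16.5 FP over E13.5 SM, -1.43, had an adjusted p of 0.0311 in the exact permutation test and crossed the threshold, at -1.32 to -1.18, without E16.5 FP replicate 1 or 2 or E13.5 SM replicate 2. That of E16.5 FP over E16.5 MM, 0.54 (exact permutation test, adjusted p = 0.156), passed it without E16.5 FP replicate 1, at 0.73.

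The genes most like the other members, by Pearson's r of log2 CPM over the 25 samples, are given as a description of these tissues and stages. They were Dtx4 (r = 0.92) and Lfng (0.90), both of the Notch pathway, for Pdgfa, and Ltbp1 (0.92), which encodes a binding protein of latent TGF-beta, and Ntn4 (0.92), which encodes a netrin, for Pdgfc. For Pdgfd they were Cxcl13 (0.97), a chemokine gene, and Sned1 (0.96), a matrix gene. For Pdgfra they were Epha7 (0.98), an ephrin receptor gene, and Pde7b (0.97), a phosphodiesterase gene, and for Pdgfrb Adgra2 (0.96), an adhesion receptor gene, and Tcf4 (0.96), a transcription factor gene. For Hgf they were Il1rl2 (0.96), an interleukin receptor gene, and Abcc9 (0.96), which encodes a subunit of a potassium channel and is among the 9 mural markers. The samples of a tissue share its whole profile, so many genes share such a pattern.

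Proteins that process or bind PDGFs were described from a list of 11 genes, all measured. The pair E13.5 MM over E13.5 SM had 3 called as higher and 3 as lower, with a median log2 fold change of -0.26. Of all genes, 14.5% were called higher and 15.6% lower in that pair. In E13.5 SM against E13.5 VM, 4 were higher and 3 lower (median 0.24, 15.6% and 14.7% of all genes). In E16.5 MM against E13.5 MM, 5 were higher and 2 lower (median 0.47, 12.6% and 7.16%). The proprotein convertase genes Pcsk6 and Pcsk5, whose enzymes cut growth factor precursors, went opposite ways. Pcsk6 averaged 1580 ± 253 normalized counts in E13.5 MM, against 223 ± 53.3 in E13.5 SM (SD, n = 5 each, log2 fold change 2.82 ± 0.23, SE, adjusted p = 3.46e-10 by edgeR). Pcsk5 averaged 647 ± 100.6 in E13.5 MM, against 3944 ± 393 in E13.5 SM (-2.61 ± 0.17, SE, adjusted p = 4.69e-12 by edgeR). Sparc, which encodes a matrix protein that binds PDGF, averaged 70542 ± 9102 in E16.5 MM, against 9693 ± 1104 in E13.5 SM (2.86 ± 0.09, SE, adjusted p = 1.44e-18 by edgeR). Pdgfrl, which encodes a secreted protein related to the PDGF receptors, averaged 302 ± 66.1 in E16.5 MM, against 51.7 ± 4.56 in E13.5 MM (2.54 ± 0.22, SE, adjusted p = 8.56e-10 by edgeR).

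The list around HGF held 13 genes of its activation, inhibition, co-receptors and the related Mst1 system, of which 12 were tested. In E16.5 MM over E13.5 MM 5 were called, all higher (median 0.73), where 12.6% of all genes were called higher, and in E16.5 MM over E13.5 VM 4, all higher (median 0.87, 13.7% of all genes). In E16.5 FP over E13.5 MM 3 were higher and 3 lower (median 0.56, 14.3% and 11.2% of all genes), and in E16.5 FP over E16.5 MM 1 was higher and 4 lower (median -0.59, 6.78% and 7.34%). Those higher in E16.5 MM over E13.5 MM were Cd44, Dcn, Plaur and a pair of genes also known from epithelium, Spint2, which encodes a protease inhibitor (1.06 ± 0.29, SE, adjusted p = 0.00434 by edgeR), and St14, which encodes the protease matriptase (0.90 ± 0.33, SE, adjusted p = 0.0275 by edgeR). In the same pair 9 of the 11 epithelial markers were called higher and 1 lower, with the sums given beside Met, and their part in these counts was not tested. Plaur, which encodes the receptor of urokinase, averaged 326 ± 49.7 normalized counts in E16.5 MM, against 40.4 ± 13.9 in E13.5 SM (SD, n = 5 each, log2 fold change 3.01 ± 0.21, SE, adjusted p = 2.68e-12 by edgeR). Cd44, which encodes a hyaluronan receptor that can act as a co-receptor of Met, averaged 7206 ± 914 in E16.5 FP, against 1673 ± 179 in E13.5 SM (2.11 ± 0.11, SE, adjusted p = 2.17e-14 by edgeR). Plxnb1, a semaphorin receptor gene whose product can pair with Met, was lower in the same comparison, at 310.5 ± 60.9 in E16.5 FP, against 1099.9 ± 103 in E13.5 SM (-1.82 ± 0.11, SE, adjusted p = 1.98e-13 by edgeR). Dcn, which encodes decorin, a matrix protein that binds Met and is also one of the mesenchyme markers, averaged 65709.6 ± 5848 in E16.5 MM, against 22331 ± 5812 in E13.5 SM (1.56 ± 0.17, SE, adjusted p = 1.27e-08 by edgeR).

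The adaptors, kinases and phosphatases that act behind these receptors were described from a list of 31 genes, all tested. In E13.5 MM over E13.5 VM 1 was called, lower, where 3.79% of all genes were called higher and 2.66% lower. In E16.5 MM over E13.5 MM 2 were higher and 2 lower (12.6% and 7.16% of all genes). The pair E16.5 FP over E16.5 MM had 2 calls, both lower (6.78% of all genes higher and 7.34% lower). Relative to E13.5 SM, each E16.5 tissue had 3 higher and 6 lower and E13.5 MM 2 higher and 5 lower, where 20.2% of all genes were called higher and 19.3% lower for E16.5 FP, 18.5% and 16.6% for E16.5 MM and 14.5% and 15.6% for E13.5 MM. Relative to E13.5 VM, each E16.5 tissue had 1 higher and 5 lower, with 15% and 12.4% of all genes for E16.5 FP and 13.7% and 9.55% for E16.5 MM. Their median log2 fold changes lay between -0.21 and 0.06 over the 10 pairs. Src, a kinase gene, averaged 713 ± 97.3 normalized counts in E16.5 FP, against 1736 ± 120.4 in E13.5 SM (SD, n = 5 each, log2 fold change -1.28 ± 0.09, SE, adjusted p = 7.85e-12 by edgeR). Gab1, whose product docks to Met, was at -1.28 ± 0.10 in the same pair (SE, adjusted p = 3.77e-11 by edgeR). In E13.5 MM over E13.5 SM, Cbl, which encodes a ubiquitin ligase that removes such receptors, was at -1.21 ± 0.18 (adjusted p = 2.48e-06), and Pik3r1, which encodes a regulatory subunit of PI3 kinase, at 1.18 ± 0.12 (7.60e-09, both SE and edgeR).

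The 16 genes of ERK feedback and the immediate early response, which many receptors besides these turn on, differed in both directions. In E16.5 FP against E16.5 MM 2 were higher and 7 lower (median -0.49, 6.78% and 7.34% of all genes). In E13.5 MM over E13.5 SM 4 were called higher and 7 lower (median -0.15, 14.5% and 15.6%). In E13.5 SM against E13.5 VM 7 were higher and 4 lower (median 0.14, 15.6% and 14.7%). Etv4, a transcription factor gene of the feedback group, averaged 49.8 ± 11.9 normalized counts in E16.5 FP, against 349.5 ± 65.4 in E13.5 SM (SD, n = 5 each, log2 fold change -2.82 ± 0.17, SE, adjusted p = 1.15e-13 by edgeR). Fos averaged 362 ± 21.05 in E13.5 MM, against 1649 ± 1024 in E13.5 SM (-2.19 ± 0.41, SE, adjusted p = 8.02e-05 by edgeR). The E13.5 SM samples differed widely among themselves in Fos, from 589 to 2859.6, and in the related Fosb, from 353 to 1949. Fosb gave -2.21 ± 0.50 in the same pair (SE, adjusted p = 6.77e-04 by edgeR). Ier3, another early response gene, averaged 238 ± 30.9 in E16.5 MM, against 54.8 ± 15.7 in E13.5 SM (2.12 ± 0.20, SE, adjusted p = 8.98e-10 by edgeR).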

How the data were processed

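The deposited file holds estimated counts per gene as whole numbers, which the authors made with Salmon 0.99.0 on mm10 after FastQC 0.11.8, MultiQC 1.9 and Trimmomatic 0.39. The annotation release and strand setting are not given in the sources used here, so reads of antisense genes cannot be told apart, and annotated genes that overlap Pdgfa, Pdgfb, Pdgfc, Pdgfra and Hgf were not analysed here. Symbols, positions and exon lengths came from GENCODE M21. Rows with no symbol there held 0.103% of counts. The members and gene lists were chosen with earlier results of these data known.

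Counts were scaled by TMM and fitted in edgeR 4.0.16 (R 4.3.3, robust quasi-likelihood, 1 mean per tissue, 25 samples, 20 residual degrees of freedom, common dispersion 0.0433), with Benjamini-Hochberg adjustment over 17657 genes. The standard error is the log2 fold change divided by the root of F. The genes named are the 8 members, for each the 2 genes with the highest correlation among those of at least 5 CPM, and up to 4 genes of each list by size of change among those called in the 7 pairs of the study. Ratios used a pseudocount of 0.5 and exact permutation tests. The alternatives were DESeq2 1.42.0, its size factors within edgeR, leaving the filter out, fits of 2 tissues, no robust step, a mean over both tissues, a replicate block, a pseudocount of 2 and each replicate left out. The fit was checked on simulated counts. Tables and figures came from pandas 2.3.3, numpy 2.4.6 and matplotlib 3.10.9 in Python 3.11.15.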

Additional observations from a re-analysis of the deposited data

Results flagged for a closer look

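In 4 of the 40 groups of 5 samples, 8 genes in 5 tissues, the highest or lowest sample stood apart from the other 4 by Dixon's criterion (a gap over 0.71 of the range), and chance alone gives about 1 in 20 such groups. Met had 523 normalized counts in E13.5 SM replicate 1, above the others at 104 to 199. Met also had 766 in E16.5 MM replicate 3, below the other 4 samples. Pdgfc had 508 in E13.5 MM replicate 3, above the others, and Pdgfrb had 4136 in E13.5 SM replicate 4, above the others.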

How the results depend on the processing

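Of 80 results, the 8 genes in 10 pairs, 67 kept their call under every alternative, among them 40 of the 47 that were called. DESeq2's Wald test, its size factors in edgeR, the fit with no robust step and the mean over both tissues changed none of the 80, and the counts of members and of all genes called stayed within 1.5 times under all of them. With no expression filter, 3 calls were lost: Pdgfa in E16.5 FP over E13.5 VM (0.55), Pdgfc in E16.5 MM over E13.5 MM (0.63) and Met in E13.5 SM over E13.5 VM (-0.73). Fits of 2 tissues lost the last of these (-0.78, edgeR adjusted p = 0.117) and gained Pdgfb in the same pair (-0.58). Scaling to endothelial markers, added after the data were seen, ended the 3 Pdgfb calls, all of them over E13.5 SM. The log2 differences were then -0.18 for E16.5 FP, -0.047 for E13.5 MM and 0.01 for E16.5 MM. None of these passed in the exact permutation test (adjusted p = 0.265, 0.723 and 0.905). The replicate numbers did not pair the samples (correlations of same-numbered samples -0.37 to 0.29), and the replicate block ended 1 call, Pdgfc in E16.5 MM over E13.5 MM (0.64, edgeR adjusted p = 0.0509). A paired exact permutation test of a ratio cannot reach the threshold with 5 pairs. Leaving out each replicate in turn changed the call in 35 of 800 member results, and ratios that crossed the threshold ranged as follows. Pdgfra over Pdgfrb ran from -0.35 to -0.23 in E16.5 FP over E13.5 VM (crossing without E16.5 FP replicate 2, 3 or 5 or E13.5 VM replicate 2, 3, 4 or 5) and from -0.34 to -0.23 in E16.5 MM over E13.5 VM (E16.5 MM replicate 1, 3 or 4). It ran from -0.26 to -0.16 in E16.5 FP over E13.5 MM (E16.5 FP replicate 2, 3, 4 or 5 or E13.5 MM replicate 1, 2, 4 or 5) and from -0.25 to -0.17 in E16.5 MM over E13.5 MM (E16.5 MM replicate 1). Pdgfd over Pdgfc ran from 0.79 to 1.13 in E16.5 FP over E13.5 MM and from 0.75 to 1.08 in E16.5 FP over E16.5 MM. Hgf over Met ran from 0.30 to 0.73 in E16.5 FP over E16.5 MM and from -1.72 to -1.18 in E16.5 FP over E13.5 SM. The causes of these changes were not tested. The lowest normalized count of a member in any sample was 68.1 (Pdgfc in E13.5 SM), so no member was at or near 0.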

Other observations

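The relatives of the PDGF system, the VEGF ligands and the class III and V receptor tyrosine kinases with their ligands, were described from a list of 15 genes. Against the salivary mesenchyme, E16.5 FP had 7 higher and 1 lower (median log2 fold change 1.10), where 20.2% of all genes were called higher and 19.3% lower. E16.5 MM had 8 called, all higher (1.25, 18.5% of all genes), and E13.5 MM likewise 8, all higher (0.88, 14.5%). In E13.5 SM over E13.5 VM 7 were called, all lower (-0.65, 14.7% of all genes), and in E13.5 MM over E13.5 VM 2, both higher (0.11, 3.79%). Vegfd, a ligand of lymphatic growth, averaged 796 ± 76.2 normalized counts in E13.5 MM samples, 19.7 ± 16.6 in E13.5 SM samples and 605 ± 51.5 in E13.5 VM samples (SD, n = 5 each). The log2 fold change of E13.5 MM over E13.5 SM was 5.32 ± 0.26 (SE, adjusted p = 1.28e-14 by edgeR).

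Kitl, the ligand gene of the receptor Kit, averaged 10757 ± 2038 normalized counts in E16.5 FP, against 1880.4 ± 364 in E13.5 SM (log2 fold change 2.52 ± 0.13, SE, adjusted p = 1.46e-14 by edgeR), and Kit itself was higher in the same pair (2.51 ± 0.15, SE, adjusted p = 1.95e-13 by edgeR). Csf1r, a receptor gene of macrophages, averaged 2909.5 ± 269 in E16.5 MM, against 417 ± 32.03 in E13.5 SM (2.80 ± 0.08, SE, adjusted p = 1.90e-19 by edgeR). It is among the 10 leukocyte markers, whose sums were 15260 to 17692 in E16.5 MM, against 1859 to 2628 in E13.5 SM. Kdr, the gene of an endothelial VEGF receptor and one of the 11 endothelial markers, was called higher over E13.5 SM in E16.5 FP (0.84 ± 0.10, adjusted p = 3.19e-08) and E16.5 MM (0.61 ± 0.10, 5.35e-06, both SE and edgeR). The endothelial sums were 31506 to 38640 for E16.5 FP and 25723 to 31081 for E16.5 MM, against 13543 to 15530 for E13.5 SM. The part of leukocytes and endothelium in the list's counts was not tested.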
